A study of Mus musculus with 2 samples.

Results

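The SR, hnRNP and SF3 splicing factor genes were examined on 2 arrays of sorted mouse fetal liver macrophages, 1 from wild-type (c-Maf+/+) and 1 from c-Maf KO (c-Maf-/-) embryos of the C57BL/6J strain, both at embryonic stage E15.5. Cells carrying Mac-1 and F4/80 on their surface were sorted, and neither group received a treatment. Maf encodes c-Maf, a transcription factor of the basic leucine zipper class. The labels describe the knockout only as c-Maf KO, with no cell type or promoter to which the deletion is restricted. How many embryos went into each array is not stated in the labels. The members are the genes whose current symbol begins with Srsf, Hnrnp, Sf3a or Sf3b, read from probe sets annotated to 1 gene symbol, with each gene represented by its probe set of highest mean signal over both arrays. This gave 38 genes with 121 probe sets, of 18193 genes with 34945 such probe sets on the array: 10 SR genes, 19 hnRNP genes and 9 SF3 genes. Of the 38 genes, 37 were measured, which means at or above a floor on at least 1 array; Srsf12 lay below it on both, at 0.164 (wild type) and 0.143 (knockout). Srsf7 and Hnrnpa3 were not analysed here, since no probe set annotated to either gene alone was used.

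Pre-mRNA splicing is carried out by the spliceosome, which recognises the ends of each intron and joins the exons. SR proteins carry RNA recognition motifs and a domain rich in arginine and serine, and generally bind exonic enhancers and recruit spliceosome subunits; hnRNP proteins coat nascent transcripts and often repress the use of nearby splice sites, so that the balance of both families helps to set alternative exon choice. SF3A and SF3B are the protein complexes of the U2 snRNP that hold it at the branch point. Many SR and hnRNP genes also splice their own transcripts into forms that are degraded, so probe sets for different parts of such a gene can read different transcripts.

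Neither genotype had a replicate array and no test was possible, so every difference below describes these arrays and not the genotypes. The knockout array was dimmer, with a median deposited signal (a linear intensity) of 2.98 over all probe sets against 4.73 in wild type. Values are therefore given in 2 ways: the deposited signal on each array, and a level-adjusted log2 ratio of knockout over wild type, taken after quantile normalization had given both arrays the same distribution of signals and after values under 3.75, the 50th percentile, had been raised to it. Higher and lower refer to this ratio unless the deposited signal is named. The only yardstick of error is the spread between probe sets of 1 gene, 0.72 log2 units (pooled SD over 3946 bright probe sets of 1625 genes, bright meaning at least 4 times the floor), which leaves out all variation between embryos, sorts and arrays. Maf itself read 47.6 in wild type but 0.219 in knockout; whether its probes lie in the deleted part is not known here. The sort markers Adgre1, which encodes F4/80, and Itgam, which encodes the CD11b chain of Mac-1, were above the floor on both arrays, Itgam only just (5.76 and 3.94). Control probe sets at both ends of Actb gave a 3'/5' ratio of 13.3 in wild type but 6.05 in knockout, and those of Gapdh 1.83 and 0.90; the part of RNA or labelling quality in the results was not tested.

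The splicing factor genes were low as a group on the knockout array. In deposited signal all 37 measured genes were lower in knockout than in wild type on the representative probe set. Dimmer measured probe sets of Hnrnpab, Hnrnpdl, Sf3b2, Sf3a1 and Hnrnpa1 were higher in deposited signal, with log2 ratios up to 0.71. Of the 37 genes 34 were at least 2-fold lower, against 39.8% of all 13479 genes measured on that scale. Among the 5553 bright genes 3219 were at least 2-fold lower in deposited signal, and 36 of the 37 members were bright. At least 2-fold higher were 0, against 1.19% of all genes. After level adjustment 33 of 37 had a ratio below 0, or 89.2%, against 49.5% of all 13290 measured genes. The median ratio of the members was -0.48, against 0.0087 over all measured genes and -0.054 over the 5553 bright ones. Of the 37 genes, 6 were at least 2-fold lower, or 16.2%, against 9.05% of all genes and 11.96% of bright genes. None (0) was at least 2-fold higher on the representative probe set, against 8.34% of all genes. The lower members were Hnrnpab, Hnrnpf, Hnrnpk, Hnrnph3, Sf3b1 and Sf3b6, and the shift of the group thus consisted mostly of differences short of 2-fold. At 1.5-fold 17 genes were lower, or 45.9%, against 21.0% of all genes. In bulk RNA from a sort, fewer cells of a type and less RNA per cell cannot be told apart.

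**Figure D1:**
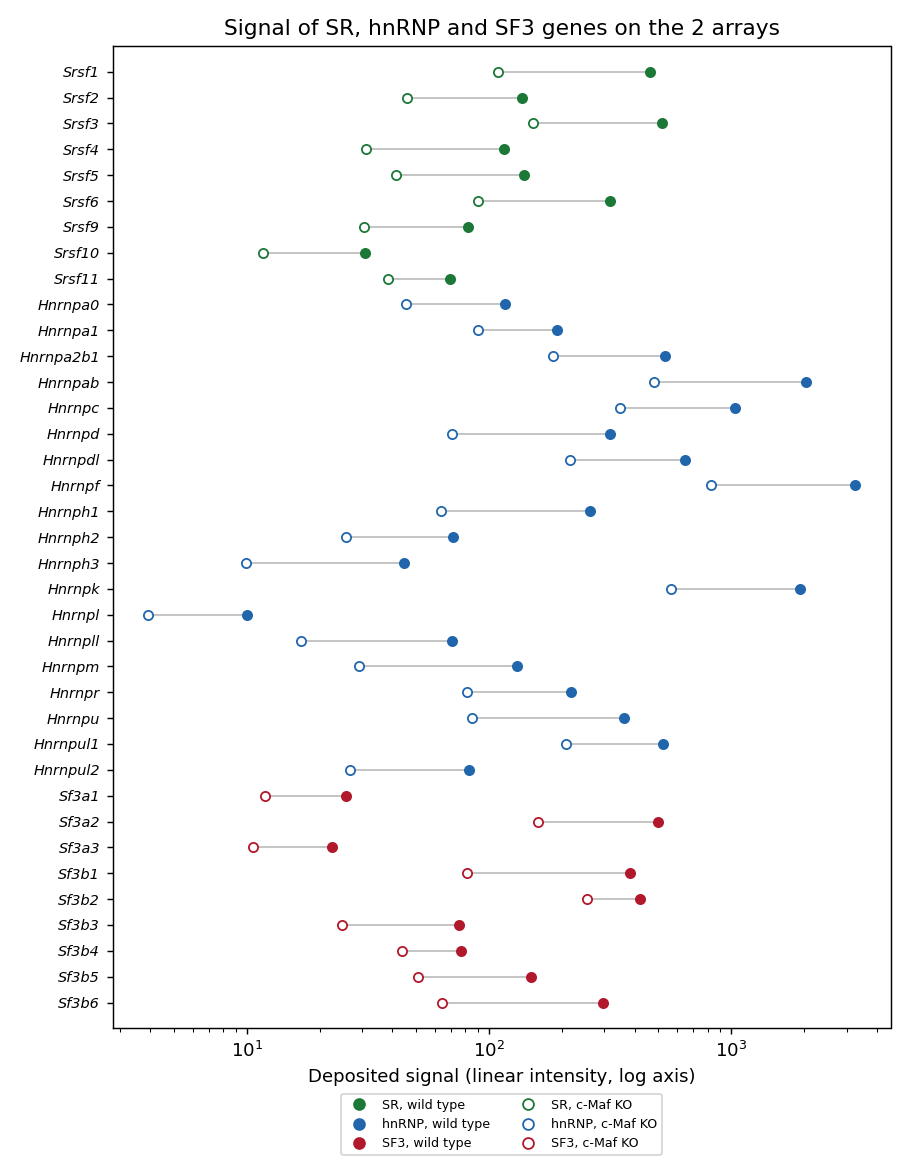
Deposited signal of the 37 measured SR, hnRNP and SF3 genes on the wild-type array (filled) and the c-Maf KO array (open), on a log axis, 1 probe set per gene and 1 array per genotype. Every open point lies to the left of its filled point; positions of different genes are not comparable, since each probe set has its own brightness.

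Part of this group shift moved with signal strength. After level adjustment the median ratio over all genes still ran from 0.18 in the dimmest of 10 equal bins of mean signal to -0.21 in the brightest, and 25 of the 37 members lay in the brightest bin. When each ratio was set against the median of its own bin, 31 of 37 members were still below it, and the members' median was -0.36. Only Hnrnpab and Hnrnpf were then at least 2-fold lower, which makes 2 of 37 against 8.47% of all genes. Across the 37 genes, Spearman's rho of ratio against mean signal was -0.35, and across the 5553 bright genes it was -0.19; all points share the same arrays. The lower position of the group was therefore smaller, and its count of 2-fold changes no longer above the background, once signal strength was taken into account.

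The 250 bases before the start of transcription were searched in the promoter windows that RefSeq gives for GRCm38.p6, in which 34 of the 38 genes had 47 windows. The windows were rich in G and C, with a median of 64.0% against 52.4% over all 32851 windows, and their ratio of observed to expected CG was 0.92 against 0.37. On either strand, the GC box GGGCGG was in 35 of the 47 windows (74.5%, against 32.7% of all windows), the ETS core CCGGAAG in 15 (31.9%, against 6.91%) and CCAAT in 22 (46.8%, against 33.8%). TATAAA was in 4 (8.51%, against 12.4%). The core of a Maf binding site, TGCTGA, was in 4 windows (8.51%, against 16.1%), those of Hnrnpdl, Hnrnpf, Hnrnph2 and Srsf11. The AP-1 element TGACTCA was in 1 window (2.13%, against 4.46%), that of Hnrnpa1. These 2 motifs can overlap at TGA. A match is a run of letters and not a bound site, and windows of 1 gene can overlap. The 150 bases nearest to the start are shown for the 6 genes that were at least 2-fold lower. Hnrnpf has 4 annotated windows, and the one with the Maf cores is printed. In their 150 bases the other Hnrnpf windows hold GC boxes and no Maf core, so the printed one does not stand for them. Capitals mark all motif matches.
Hnrnpab, chr11:51606882-51607031, minus strand: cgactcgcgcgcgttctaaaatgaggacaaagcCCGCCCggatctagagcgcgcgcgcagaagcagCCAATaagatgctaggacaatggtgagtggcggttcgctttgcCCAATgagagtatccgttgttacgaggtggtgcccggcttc
Hnrnpf, chr6:117900190-117900339, plus strand: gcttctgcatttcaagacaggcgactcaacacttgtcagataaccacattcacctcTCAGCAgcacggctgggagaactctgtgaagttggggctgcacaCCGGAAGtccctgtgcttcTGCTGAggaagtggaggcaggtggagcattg
Hnrnph3, chr10:63023850-63023999, minus strand: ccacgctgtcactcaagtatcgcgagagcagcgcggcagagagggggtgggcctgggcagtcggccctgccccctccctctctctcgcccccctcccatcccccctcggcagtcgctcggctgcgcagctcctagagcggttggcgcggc
Hnrnpk, chr13:58402118-58402267, minus strand: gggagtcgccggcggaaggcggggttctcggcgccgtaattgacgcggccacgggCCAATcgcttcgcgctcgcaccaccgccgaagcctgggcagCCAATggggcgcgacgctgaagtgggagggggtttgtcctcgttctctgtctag
Sf3b1, chr1:55027479-55027628, minus strand: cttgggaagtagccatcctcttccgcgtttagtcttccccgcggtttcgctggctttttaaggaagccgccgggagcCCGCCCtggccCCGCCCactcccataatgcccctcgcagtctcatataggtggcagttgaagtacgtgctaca
Sf3b6, chr12:4817458-4817607, plus strand: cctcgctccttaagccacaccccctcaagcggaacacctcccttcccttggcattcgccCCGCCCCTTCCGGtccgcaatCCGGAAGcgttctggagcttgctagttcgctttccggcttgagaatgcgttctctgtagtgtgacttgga
The printed Hnrnpf window holds TGCTGA on both strands and an ETS core between them. The Hnrnpab window holds a GC box and 2 CCAAT matches, and the Hnrnpk window 2 CCAAT matches. The Hnrnph3 stretch holds no match to any of the motifs. The Sf3b1 window holds 2 GC boxes, and the Sf3b6 window ETS cores on both strands, one of them abutting a GC box.

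Among SR genes, 9 were measured, 8 of them had a ratio below 0 and 0 were 2-fold or more in either direction, with a median of -0.58. Srsf1, the founding member of the family (also called SF2/ASF), went from 462 to 109, a ratio of -0.89; such pairs give the deposited signal on the wild-type and then the knockout array. Srsf4, one of the long SR proteins, went from 115 to 31.1 (-0.71). Srsf6 went from 317 to 89.8 (-0.66). These were the lowest SR genes, and their differences were about the size of the spread between probe sets. Srsf3, the smallest SR protein, went from 521 to 152 (-0.62), with other measured probe sets from -0.69 to 0.48. Srsf5 went from 139.6 to 41.4 (-0.58). Srsf2 (SC35), a marker of nuclear speckles, went from 137 to 45.9 (-0.41), but its other 3 measured probe sets were at 0.070, 0.33 and 0.75. The remaining members were closer to the median gene. Srsf10, which acts as a splicing repressor when dephosphorylated, went from 30.7 to 11.7 (-0.32), and Srsf9 from 81.9 to 30.6 (-0.24). Other measured probe sets of Srsf10 ran from -0.31 to 0.39. Srsf11 was the only SR gene with a ratio above 0, going from 69.2 to 38.5 (0.33), while its other 3 measured probe sets had ratios from -0.83 to -0.57.

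The hnRNP genes held 4 of the 6 members that were at least 2-fold lower, but also 19 of the 37 measured members. The share at least 2-fold lower was 21.1% of hnRNP genes and 22.2% of SF3 genes, against 9.05% of all genes and 11.96% of bright genes. All 19 hnRNP genes were measured, 18 had a ratio below 0, and the median was -0.66. Hnrnpab, a member of the A/B family that also acts in transcription, went from 2032 on the wild-type array to 479 on the knockout array (-1.40, or 2.63-fold lower). Hnrnpf, which binds runs of G, went from 3257 to 827 (-1.30, or 2.47-fold). Hnrnpk, which binds C-rich RNA and DNA through KH domains, went from 1928 to 566 (-1.08, or 2.11-fold). Hnrnph3, a relative of Hnrnpf, went from 44.5 to 9.97 (-1.07, or 2.10-fold) on its single probe set. Of these, only the ratios of Hnrnpab and Hnrnpf exceeded the spread between probe sets by more than 0.5 log2 units, and both genes had probe sets that went the other way.

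Just short of 2-fold stood Hnrnpd, the AU-rich element binding protein AUF1 (316 to 70.2, -0.99), and Hnrnpm (131 to 29.1, -0.99). Hnrnpll, a regulator of CD45 exon choice in lymphocytes, went from 70.3 to 16.7 (-0.92), but its other probe set, from 49.8 to 27.8, was at 0.32. Hnrnpu, a nuclear scaffold protein, went from 362 to 85.3 (-0.92), but its other measured probe sets ran from -0.55 to 0.066. Hnrnph1 went from 262 to 63.4 (-0.86). Hnrnpc, whose protein binds runs of U in introns, went from 1036 to 347 (-0.66). Hnrnpl, which binds CA repeats, was dim on both arrays, at 10 and 3.92 (-0.59).

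The other hnRNP genes were nearer to the median gene. Hnrnpul2 went from 82.8 to 26.8 (-0.46), Hnrnpdl from 646 to 217 (-0.43) and Hnrnpa2b1 from 532 to 185 (-0.42). Hnrnph2 (71.2 to 25.8, -0.30), Hnrnpr (219 to 81.4, -0.25), Hnrnpa0 (116.8 to 45.4, -0.20) and Hnrnpul1 (524 to 208, -0.17) followed. Other measured probe sets of Hnrnpr ran from -1.96 to 0.027, the lowest going from 20.9 to below the floor (a bound). Hnrnpa1, the archetypal antagonist of SR proteins in splice site choice, was the only hnRNP gene with a ratio above 0, going from 190.9 to 90.3 (0.090). Other measured probe sets of Hnrnpa1 were at 1.18 (45.1 to 46.1) and 0.42 (5.77 to 4.67). Hnrnpa1 has near-identical processed copies, and 3 further probe sets annotated to it together with such copies were not used. 

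The SF3 genes were the least shifted by median, at -0.36 over 9 genes, with 7 of them below 0. The 3 subunits of SF3A were Sf3a2 (500.3 to 159, -0.48), Sf3a1 (25.7 to 11.9, -0.055) and Sf3a3 (22.6 to 10.7, -0.042), and none reached 2-fold in either direction after level adjustment. Other measured probe sets of Sf3a1 ran from -0.70 (a bound) to 0.92, that of Sf3a3 was at 0.42 and that of Sf3a2 at -0.31. In SF3B the subunits differed on their brightest probe sets. Sf3b1, the large scaffold subunit that clamps the branch point helix and is recurrently mutated in myelodysplastic syndromes, went from 385 to 81.3 (-1.09, or 2.13-fold lower). Sf3b6 (p14), which contacts the branch point adenosine, went from 295 to 64.3 (-1.02, or 2.02-fold). Sf3b3 (75.4 to 24.8, -0.44) and Sf3b5 (149 to 51.1, -0.36) were within 2-fold. The 2 remaining subunits had ratios above 0: Sf3b4 (76.5 to 43.6, 0.36) and Sf3b2 (421 to 253, 0.38), the latter the highest of all 37 members. In deposited signal both were less than 2-fold lower. On these probe sets, subunits that work in 1 complex spanned 1.09 below to 0.38 above the zero of the level-adjusted log2 scale. Probe sets of single subunits spread as widely: Sf3b1 from -1.85 (a bound) to 0.15, Sf3b2 from -0.40 to 1.47 and Sf3b6 from -1.02 to 0.73. Those of Sf3b3, Sf3b4 and Sf3b5 spanned only 0.30, 0.029 and 0.43 log2 units. Whether the subunits differed from each other thus cannot be told from 1 probe set each.

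**Figure D2:**
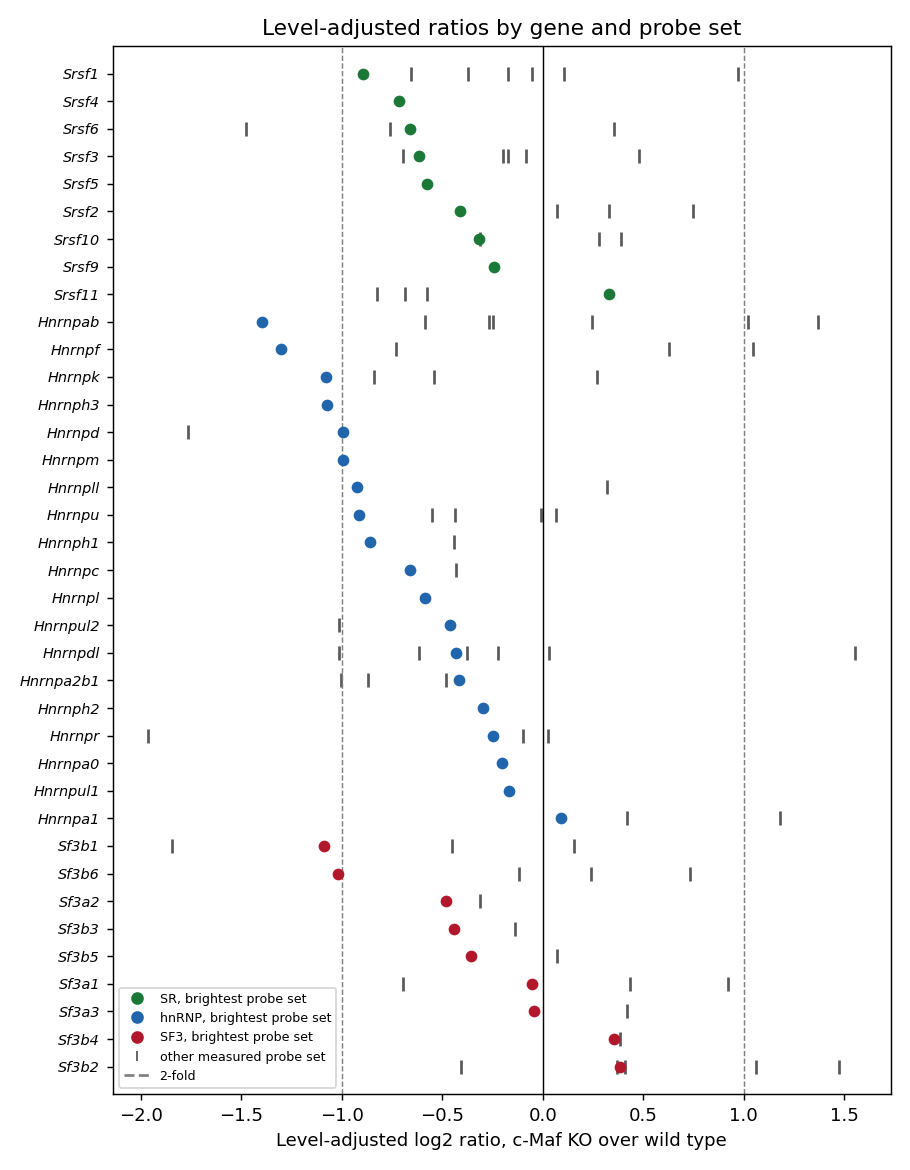
Level-adjusted log2 ratio of c-Maf KO over wild type for each measured gene: coloured points are the brightest probe set, grey ticks the other measured probe sets of the same gene, and dashed lines 2-fold. Of 37 coloured points 33 lie left of 0 and 6 at or beyond the left dashed line, while 7 grey ticks, of Hnrnpab, Hnrnpf, Hnrnpdl, Hnrnpa1 and Sf3b2, lie beyond the right one.

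Probe sets of the same gene often disagreed. Of 28 members with at least 2 measured probe sets, 19 (67.9%) had ratios of both signs, against 56.9% of 5601 such genes over the array. In 16 (57.1%, against 44.1%) the probe sets spanned more than 1 log2 unit. In 3 members (10.7%, against 2.48%), Hnrnpab, Hnrnpf and Hnrnpdl, at least 1 probe set was 2-fold lower and another 2-fold higher. Members have more probe sets per gene (121 for 38 genes, against 34945 for 18193), which by itself widens their range. The pooled SD among bright probe sets of 1 gene was 0.66 for members, against the 0.72 over all genes.

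Hnrnpab was the clearest case. Its brightest probe set had the ratio of -1.40, but the next in brightness went from 604 up to 830, at 1.37. The following ones went from 362 to 135 (-0.27) and from 70.6 to 63.3 (1.02). The mean over its 7 measured probe sets was 0.020, so the direction of Hnrnpab depended on the probe set read. In Hnrnpf both very bright probe sets were lower (-1.30, and 1168 to 388 with -0.73), whereas the dimmer ones, 42.4 to 29.4 and 36.6 to 34.2, were at 0.63 and 1.04. In Hnrnpdl the ratios ran from -1.01 to 1.55, the last from a probe set with signals of 5.62 and 9.17. In Sf3b2 the ratios of the 6 measured probe sets ran from -0.40 to 1.47, with 5 of them above 0.

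Some other members, among them Hnrnpa2b1, Hnrnpd, Hnrnpul2 and Sf3b4, were steadier. All 4 measured probe sets of Hnrnpa2b1 had ratios between -1.0 and -0.42, both of Hnrnpd were at -0.99 or lower, both of Hnrnpul2 were at -0.46 or lower, and both of Sf3b4 were between 0.36 and 0.38. Of the 4 probe sets of Hnrnpk 3 were below 0, with the other at 0.27. Of the 4 of Sf3b1, 3 were below 0, and one of them went from 19.1 to below the floor (-1.85, a bound). Of the 4 of Srsf6, 3 were below 0, down to -1.48, and of the 7 of Srsf1, 5, with the highest at 0.97. For Sf3b6 the brightest probe set stood alone below -1, since the others were at -0.12, 0.24 and 0.73.

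The brightest probe set tended to be the lower one. It had a lower ratio than the median of the gene's other measured probe sets in 23 of 28 members (82.1%), against 57.3% of 5598 genes over the array, by a median of 0.43 log2 units in members and 0.16 over all genes. The 77 measured probe sets of members that did not represent their gene had a median ratio of -0.12, with 7 lower and 7 higher by 2-fold or more. The choice of the brightest probe set therefore set part of the size of the group's shift. Counting all 114 measured probe sets of the members, the median was -0.30, with 13 at least 2-fold lower and 7 higher, which is 11.4% lower against 8.82% of all measured probe sets, where 8.71% were higher.

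Other splicing genes, from 10 lists that cover the rest of the machinery, were shifted the same way but less. Of 146 measured genes 93 (63.7%) were below 0, against 49.5% of all genes, and the median was -0.29. At least 2-fold lower were 15 (10.3%), against 9.05% of all genes and 11.96% of bright genes, so this share was near the background. At least 2-fold higher were 5 (3.42%), against 8.34% of all genes and 8.63% of bright genes. By list, the median was 0.023 for the 5 measured Sm proteins, which form the ring of the snRNPs, -0.029 for 18 genes of the Prp19 complex, and -0.16 for 15 genes of the U4/U6.U5 tri-snRNP. It was -0.27 for 7 U1 snRNP genes and -0.28 for 16 genes of the U2 snRNP and 3' splice site. It was -0.40 for 23 SR-related genes, -0.44 for 8 exon junction complex genes, -0.64 for 11 genes of SR protein kinases and importins, -0.74 for 8 splicing helicases and -0.21 for 35 other splicing regulators. The numbers of genes are small, and these medians have no test.

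Genes whose products act on the members or work beside them differed among themselves. Tnpo3, which imports phosphorylated SR proteins into the nucleus, went from 96.6 to 11.8 (-1.93, or 3.82-fold lower), and its other 2 measured probe sets were at -0.45 and -0.16. The SR protein kinase gene Srpk1 went from 57.0 to 9.99 (-1.42), but its other probe set was at 0.39. Clk4 went from 50.4 to 9.24 (-1.37), with another probe set at -0.25. Ddx46, the helicase that remodels the U2 snRNP together with SF3B, went from 29.7 to 6.47 (-1.22), with other probe sets from -0.78 to 0.37. The other kinases were within 2-fold: Clk3 (67.1 to 17.5, -0.79), Clk1 (61.3 to 17.4, -0.67), Srpk2 (70.9 to 25.9, -0.28) and Clk2 (34.9 to 22.5, 0.50). So were Tnpo1, which imports hnRNP A1 (43.7 to 14.6, -0.46), the small SF3B subunit gene Phf5a (92.5 to 34.5, -0.26) and Ptbp1, the polypyrimidine tract binding protein (117.5 to 64.1, 0.31).

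Across all the other splicing genes that were bright and above the floor on both arrays, the lowest ratios besides Tnpo3 were those of Msi2, an RNA-binding protein of blood progenitors (39.1 to 4.44, -2.20), and Tardbp, which encodes TDP-43 (332 to 46.2, -1.67). Both had other probe sets on the opposite side of 0, up to 0.97 and 0.77. The highest were those of Sart1, a tri-snRNP protein (13.1 to 24.5, 1.93), Cwc15, a Prp19-related protein (30.9 to 29.9, 1.09), and Pcbp2, a KH-domain relative of hnRNP K (174.6 to 160.5, 1.06). Cwc15 and Pcbp2 were slightly lower in deposited signal, and a second Pcbp2 probe set was at -0.088.

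Other housekeeping machinery of many subunits is given for comparison. Of 37 measured proteasome subunit genes 12 were below 0, 1 was 2-fold lower and 6 were 2-fold higher or more, with a median of 0.32. Of 48 measured ribosomal protein genes 12 were below 0, with 1 lower and 3 higher and a median of 0.32. The shares lower and higher were 2.70% and 16.2% for the proteasome and 2.08% and 6.25% for the ribosomal genes, against 9.05% and 8.34% of all genes. On this scale both medians were on the other side of 0 from the -0.48 of the splicing factors, and no test of this difference was possible. In deposited signal all 3 groups were lower in knockout, as was the array as a whole. Over all 13479 genes the median was -0.79, with 39.8% at least 2-fold lower. Over the 5553 bright genes it was -1.17, with 3219 at least 2-fold lower. The median was -1.60 for the splicing factors (37 of 37 below 0, 34 at least 2-fold lower). It was -0.84 for the proteasome genes (33 of 37 below 0, 14 at least 2-fold lower), near that of all genes and above that of the bright ones. For the ribosomal protein genes it was -0.44 (42 of 48 below 0, 6 at least 2-fold lower), above that of all genes. Set against genes of their own signal bins, the medians were 0.50 for the proteasome and for the ribosomal protein genes, and -0.36 for the splicing factors.

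**Figure D3:**
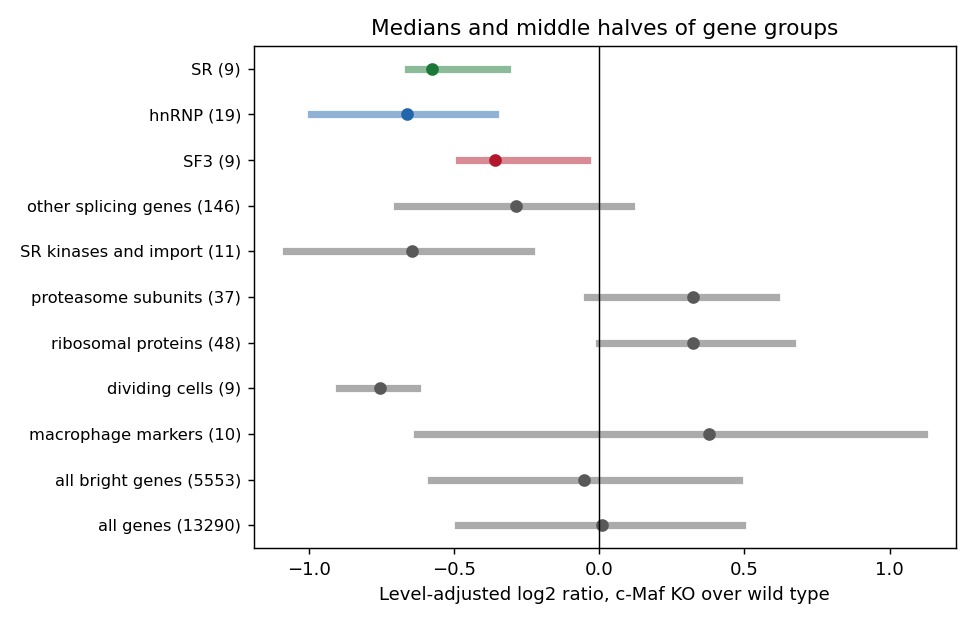
Median (point) and spread over genes (bar, 25th to 75th percentile over genes) of the level-adjusted log2 ratio, c-Maf KO over wild type, for gene groups with the number of measured genes in brackets. The 3 splicing factor families have medians from -0.66 to -0.36, the proteasome and ribosomal protein genes 0.32; bars show spread over genes and no replicate error.

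Markers of other cells differed between the arrays as well. Ratios are level-adjusted, while summed signals are deposited ones, in which the knockout array was dimmer as a whole. Of all measured genes 9.05% were at least 2-fold lower and 8.34% higher. Genes of dividing cells had a median ratio of -0.75 over 9 measured of 10 genes, with 7 below 0 and a summed signal of 3417 (wild type) and 959 (knockout). Markers of blood progenitors were lower in all 5 genes, 4 of them at least 2-fold, with a median of -1.52 and summed signals of 529 and 73.6. Granulocyte markers had a median of -0.56 over 8 genes and summed signals of 14810 and 8567, and erythroid markers 0.24 over 7 measured of 8, with 8467 and 5419. Hepatoblast markers were higher in all 6 measured of 8 genes, with a median of 2.33 and summed signals of 330.3 and 569. Macrophage markers had a median of 0.38 over 10 genes, with 4 at least 2-fold higher and 2 lower, and summed signals of 1100.5 and 505. Single genes made up much of some sums, as Csf1r (625 and 248) among macrophage and Hbb-y (7061 and 4650) among erythroid markers. Of the listed markers with a probe set Fgb alone was below the floor on both arrays. The part of these cell types in the lower splicing factor signals was not tested.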

How the data were processed

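Total RNA from sorted fetal liver macrophages was biotin-labelled and hybridised to Affymetrix GeneChips, 1 array per genotype, per the labels' protocols. The authors deposited 1 linear intensity for each of 45101 probe sets and array; how probe signals were combined, scaled or filtered is not stated there. Of these, 64 were control probe sets, and of the rest 34945 had 1 gene symbol, 932 several and 9160 none in the platform annotation; symbols of 34741 were updated by Entrez identifier from RefSeq's GRCm38.p6 genes.

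Deposited intensities were quantile normalized on the log2 scale over all probe sets, floored at the pooled 50th percentile (3.75; 3.70 as deposited) and turned into log2 ratios. Genes reaching the floor on either array were kept. Every SR, hnRNP and SF3 gene is named. Other splicing genes are named if they act on or work beside these proteins, from a list chosen by hand. The others named have the 3 highest or lowest ratios among bright genes measured on both arrays. The members and lists were chosen with earlier results of these data known. Quantile normalization was tested on simulated data, in which the average shift was the same at every signal strength and few probe sets changed. That test does not cover the shift with signal strength that remained in these arrays. With 1 array per genotype, no p-value or replicate error exists, and the number of arrays limits the precision. Alternatives were other scalings, floors, probe set choices, filters and thresholds. Python 3.11.15, pandas 2.3.3, numpy 2.4.6 and scipy 1.17.1 were used.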

Additional observations from a re-analysis of the deposited data

How the results depend on the processing

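No paired analysis was possible because each genotype had 1 array. The members' median stayed below that of all genes under every scaling, floor, probe set choice and filter run, but its size depended on the scaling. With values as deposited, the count at least 2-fold lower was 34, the median -1.60 and its difference from all genes -0.81, against 6, -0.48 and -0.49. The same 3 values were 16, -0.94 and -0.71 with equal medians, 11, -0.67 and -0.81 with ratios centred on the median gene, and 36, -1.85 and -0.85 with the hybridisation controls. Centred within signal bins they were 2, -0.36 and -0.36, with means over probe sets 2, -0.30 and -0.33, and over all probe sets 13, -0.30 and -0.32, with 7 higher. At 1.5-fold 17 genes were lower and at 3-fold 0. Without suffixed probe sets 1 gene was higher, Hnrnpab (1.37), which was at 0.020 as a mean over probe sets; Hnrnpf (0.63), Sf3b6 (0.24) and Msi2 (0.27) also turned there, as did Pcbp2 (-0.088) and, among members within 2-fold, Srsf2 (0.75), Sf3b2 (-0.40) and Sf3b5 (0.071). As means over probe sets, Srsf2 (0.19), Sf3a1 (0.15), Sf3a3 (0.19), Srsf10 (0.0090) and Srsf11 (-0.44) changed sign. Pcbp2 and Cwc15 were at -0.12 and -0.048 as deposited and at -0.36 and -0.29 with hybridisation controls. With the probe set chosen after normalization Srpk1 was at 0.39 and Hnrnpll at 0.32. Within signal bins Hnrnpa0 was at 0.010 and Hnrnpul1 at 0.045, and Hnrnpa1, Sf3b2, Sf3b4 and Srsf11 were below 0 as deposited, with equal medians and with hybridisation controls. Why these values moved was not tested beyond the settings named. Of 78 values of the 6 lower genes under the alternatives, 61 kept direction and side of 2-fold, 13 fell short of it and 4 turned. Dim genes such as Hnrnpl lie near the floor, where ratios are compressed.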
